A study of Homo sapiens with 8 samples.

Results

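Semaphorins, plexins and neuropilins were described in 2 breast cancer cell lines with amplified HER2, after inhibition of HER2, of the BET bromodomain proteins, or of both. Members were rows of the deposited gene tables whose symbol is a semaphorin of class 3 to 7, a plexin of class A to D, NRP1 or NRP2. Of the 20531 genes listed, 31 matched: 20 semaphorins, 9 plexins and 2 neuropilins. The 28 that reached 10 in any library were kept for description, 17 of them semaphorins, together with all 9 plexins and both neuropilins. These 28 were chosen by their normalised read counts, so that their being expressed is no result. PLXNC1, at 14.5 in its highest library, lay just inside this limit, and SEMA3D, at 9.19, just outside it. SEMA3A and SEMA5B, which reached 0.766 and 1.75, were the other members left out.

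Poly(A) RNA was sequenced from SKBR-3, a line without estrogen and progesterone receptors, and from BT474m1, a derivative of BT474 with both receptors. Cells of each line received DMSO (the vehicle of both drugs), 300 nM lapatinib (which blocks the kinases EGFR and HER2), 300 nM JQ1 (which keeps BET bromodomain proteins off acetylated histones), or 300 nM of each drug together, for 48 h. This gave 8 groups of 1 library, so that no difference within a line could be set against a spread between cultures, and p-values are given only for a fit over both lines. Values are normalised read counts: reads per gene as estimated by RSEM, which the authors scaled to an upper quartile of about 1000 in each library. They are not corrected for gene length, and 1 read was worth between 0.471 and 0.766 units.

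Depth ran from 21420113 to 34112376 reads on genes. In SKBR-3, at least 5 of the 6 luminal epithelial markers were at 10 or more in each library, and CDH1, which encodes E-cadherin, was at 2.58 to 15.1 there against 19414 to 24373 in BT474m1. The 6 markers summed to between 274132 and 661601 in SKBR-3, highest with JQ1, and between 186304 and 215853 in BT474m1. ERBB2, the gene of HER2, lay between 94678 and 277872 in the 8 libraries. The 5 fibroblast markers summed to between 24.1 and 124 in SKBR-3 and between 341 and 1263 in BT474m1, nearly all of it COL1A1, with LUM at 0 in every library. The 4 endothelial markers summed to between 7.0 and 189, with PECAM1 at or under 0.583, and the 5 leukocyte markers to between 2.06 and 80.7, with PTPRC at or under 3.38. Both the endothelial sum and the value of COL1A1 were lower with both drugs than with DMSO in each line. With DMSO, lapatinib and JQ1, the endothelial sum was 149, 95.7 and 22.6 in SKBR-3 and 189, 30.7 and 15.5 in BT474m1. The leukocyte sum in BT474m1 was 12.7 with DMSO and 80.7 with lapatinib, where all of it was LYZ. The part of these markers in the results was not tested. Each line is a culture of 1 cell type by label, and a lower value in a culture does not tell fewer cells with a transcript from less of it per cell.

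Semaphorins are guidance ligands named for their part in steering axons, and plexins are their receptors. Class 3 semaphorins are secreted and mostly bind a neuropilin, which holds the ligand while a plexin of class A or D carries the signal, whereas SEMA3E binds PLXND1 without a neuropilin. The semaphorins of classes 4 to 6 span the membrane and SEMA7A is tethered to it by a lipid anchor, and these bind plexins directly. Inside the cell, plexins switch off small GTPases of the Rap and R-Ras type and collapse the actin skeleton. In epithelial tumours the family is studied for its roles in migration and in the growth of vessels, since neuropilins are also co-receptors for VEGF.

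RefSeq promoter windows (GRCh38.p14), each of 300 bases from 250 before the annotated start to 50 after it, were read for the members. The windows were searched on both strands for the forkhead motifs GTAAACA and GTCAACA, since forkhead factors are among the regulators the study examined. Of 35116 windows of all genes, 1973 (5.62%) held either motif. The 44 windows found for 25 of the 28 kept members held it in 3 cases (6.82%), close to the share of all windows, in PLXNA2, SEMA3E and SEMA4B. Shown are the window of SEMA6C, the member with the greatest increase with both drugs in each line, and the windows with a motif of PLXNA2, higher with JQ1 in both lines, and SEMA3E, raised by lapatinib in SKBR-3 and lowered by JQ1 in BT474m1. Each is written 5′ to 3′ along the gene's strand with the motif in capitals.
SEMA6C (chr1:151146582-151146881, minus strand): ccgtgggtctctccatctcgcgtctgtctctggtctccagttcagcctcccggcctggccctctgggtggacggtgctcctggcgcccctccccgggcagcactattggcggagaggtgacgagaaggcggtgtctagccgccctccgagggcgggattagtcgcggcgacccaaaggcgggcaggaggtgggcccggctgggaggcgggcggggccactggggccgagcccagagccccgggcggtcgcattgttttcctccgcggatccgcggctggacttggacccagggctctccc
PLXNA2 (chr1:208244335-208244634, minus strand): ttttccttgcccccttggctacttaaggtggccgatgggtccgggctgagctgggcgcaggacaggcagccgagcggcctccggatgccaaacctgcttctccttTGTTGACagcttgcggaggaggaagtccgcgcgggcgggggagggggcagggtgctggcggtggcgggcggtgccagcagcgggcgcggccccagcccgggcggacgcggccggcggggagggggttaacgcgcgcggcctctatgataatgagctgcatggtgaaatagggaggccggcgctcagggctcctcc
SEMA3E (chr7:83649090-83649389, minus strand): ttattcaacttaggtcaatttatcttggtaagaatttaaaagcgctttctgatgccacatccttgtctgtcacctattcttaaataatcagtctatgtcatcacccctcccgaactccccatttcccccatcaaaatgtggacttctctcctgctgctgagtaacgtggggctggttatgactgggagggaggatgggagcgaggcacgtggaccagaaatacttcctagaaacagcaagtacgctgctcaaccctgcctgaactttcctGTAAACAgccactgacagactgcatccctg
The PLXNA2 window holds GTCAACA on the opposite strand, read here as its reverse complement, and its first base lies at position -145 from the start. The SEMA3E window holds GTAAACA from position 20 after the start. The SEMA6C window holds neither form, which says only that these letters are not in these 300 bases. The windows of the kept members held a median of 19 CG dinucleotides, against 14 over all windows.

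Levels per kilobase of the canonical transcript were used to compare members with one another. With DMSO, secreted class 3 ligands led in SKBR-3: SEMA3F was at 1116 normalised counts per kilobase, SEMA3C at 996 and SEMA3E at 222. SEMA3F, on the short arm of chromosome 3 beside SEMA3B, is known as an inhibitor of tumour growth and vessels, and SEMA3C is known for roles in heart and vessel development. In BT474m1, SEMA3C led at 1190.4 per kilobase, followed by SEMA4C, a ligand of PLXNB2, at 345 and SEMA3F at 298. Class 3 ligands made up 83.1% of the summed semaphorin level per kilobase in SKBR-3 with DMSO, and between 79.0% and 83.1% in its 4 libraries. In BT474m1 that share was 66.9% in DMSO, 55.3% in lapatinib, 63.3% in JQ1 and 49.5% in the combination.

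A single receptor, PLXNB2, stood far above the other plexins in both lines. With DMSO it was at 2515 per kilobase in SKBR-3, followed by PLXNB1, a receptor of SEMA4D, at 219 and PLXNA1 at 155. In BT474m1 it was at 1214, with PLXNB1 at 159 and PLXNA3 at 117. The share of PLXNB2 in the summed plexin level per kilobase was 81.6%, 88.1%, 88.7% and 93.9% in SKBR-3 with DMSO, lapatinib, JQ1 and both drugs. In BT474m1 it was 70.9%, 64.1%, 70.1% and 68.4% in the same order. Of the neuropilins, NRP1 was at 279 per kilobase in SKBR-3 and 91.5 in BT474m1, and NRP2 at 0.539 and 4.33.

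**Figure D1:**
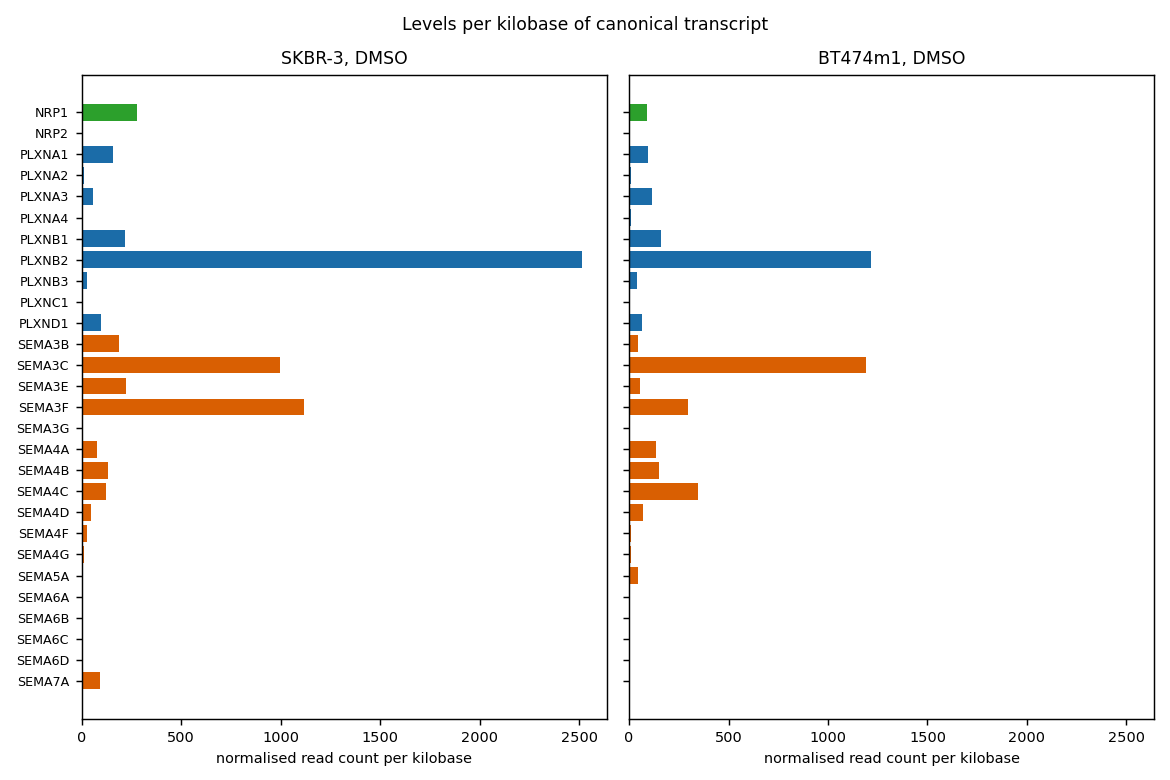
Bars give the level per kilobase of canonical transcript (normalised read count per kilobase, linear axis from 0, the same in both panels) of 28 genes with DMSO, in SKBR-3 on the left and BT474m1 on the right, 1 library each. Semaphorins are orange, plexins blue and neuropilins green. PLXNB2 is the longest bar in both panels, at 2515 and 1214, and SEMA3C in BT474m1, at 1190, nearly equals it.

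With DMSO, 8 of the 28 members were higher in BT474m1 by 2-fold or more, against 26.8% of all 14429 genes kept, a share near that of all genes. Of the 28, 9 were lower by as much, against 15.6%. NRP2, PLXNA4, PLXNC1, SEMA5A and SEMA6D, among the 8, reached 10 in BT474m1 only, and SEMA6B, among the 9, in SKBR-3 only. Such members passed the limit through the line where they are high, so that their difference was partly set by it. The median log2 difference was 0.04 over the 28 members and 0.21 over all genes. No label says if both lines shared a sequencing run, so that line and run cannot be told apart. SEMA5A, a membrane ligand of PLXNB3, was at 0 in all 4 SKBR-3 libraries and in BT474m1 at 512 in DMSO, 207 in lapatinib, 534 in JQ1 and 229 in the combination. Set against the floor of 3 reads in SKBR-3, its DMSO value in BT474m1 was at least 239-fold higher. SEMA7A, the lipid-anchored ligand of PLXNC1, ran the other way, at -5.25 on the log2 scale, with 306 in SKBR-3 and 7.07 in BT474m1, or -4.21 with a pseudocount of 10.

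Among the receptors, PLXNA4 was near the floor in SKBR-3, at 2.58 to 6.44, and in BT474m1 at 139.6 in DMSO, 94 in lapatinib, 24.2 in JQ1 and 12.8 in the combination. The log2 difference with DMSO was 4.24 (95% counting interval 3.49 to 5.58), or 3.19 with a pseudocount of 10, and rests on 9 reads in SKBR-3. NRP2, the neuropilin preferred by SEMA3F and VEGFC, stayed under 10 in SKBR-3, at 0.766 to 5.8, and reached 16.9 to 42 in BT474m1. Across the 8 libraries, 18 members were at 10 or more everywhere, and 6 were at 10 or more in 1 line only. The share of all genes placed so was not counted, so that these counts describe the members alone. Of those 6, NRP2, PLXNA4, PLXNC1, SEMA5A and SEMA6D were at 10 or more in BT474m1 and SEMA6B in SKBR-3. SEMA6B lay just under that limit in BT474m1 with DMSO and lapatinib, at 9.43 and 9.64. SEMA6D, at 0 in SKBR-3 with DMSO and 21.7 in BT474m1, was at least 10.1-fold higher in the latter. The reverse was seen for SEMA3E, SEMA3F and SEMA3B, which were lower in BT474m1, with log2 differences of -2.02 (-2.14 to -1.91), -1.90 (-1.97 to -1.83) and -2.10 (-2.31 to -1.91). PLXNB2 was also lower in BT474m1, at -1.05 (-1.08 to -1.02), and PLXNA3 was higher by 1.0, just under the 2-fold limit before rounding.

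**Figure D2:**
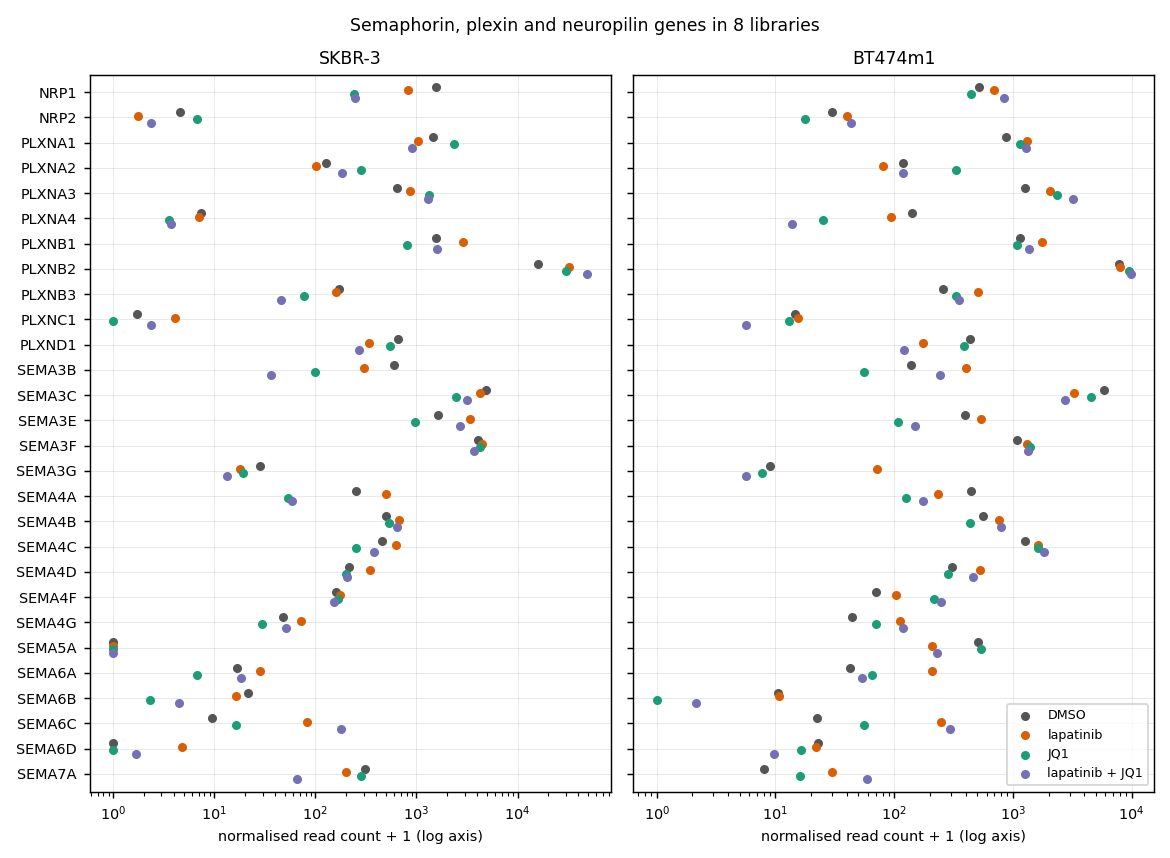
Points give the normalised read count plus 1 (log axis) of 28 genes in each library, SKBR-3 on the left and BT474m1 on the right, coloured by treatment. SEMA5A sits at 0 counts in all SKBR-3 libraries and between 207 and 534 in BT474m1. PLXNB2 is the highest member in each library, from 7783 to 48978.

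The drug comparisons asked which members responded to lapatinib, to JQ1 alone or in combination, and whether both lines responded alike. Within a line, the comparisons with DMSO share the DMSO library. Fold changes are differences of log2(value + 1), and a member is counted as raised or lowered at 2-fold or more. Intervals are 95% intervals of counting error only, because each group has 1 library. Amplified reads were not tagged as molecules and are not independent, so that the intervals may be too narrow. They were computed on the ratio of reads without the added 1, so that at few reads the fold change and its interval differ in scale. Where 4 values follow each other, their order is DMSO, lapatinib, JQ1 and both drugs. Of the 28 members, 10 were under 10 in at least 1 library, and a member that passed the limit through its high library alone had to differ, so that the counts describe the members and are read beside those of all genes.

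In response to lapatinib, 5 members were raised in SKBR-3, against 11.1% of all genes kept, and 1 was lowered, against 9.44%. In BT474m1, 6 were raised against 14% of all genes, and 2 were lowered against 8.06%. The median over the 28 members was 0.14 in SKBR-3 and 0.43 in BT474m1, beside 0.05 and 0.07 over all genes. With JQ1 in SKBR-3, 2 members rose (3.75% of all genes) and 7 fell (11.8%), and in BT474m1 3 rose (4.81%) and 5 fell (11.8%). The medians with JQ1 were -0.42 and -0.09, beside -0.08 and -0.06. With both drugs against DMSO, 3 were raised (10.8%) and 8 lowered (20.8%) in SKBR-3, and 5 were raised (14.2%) and 9 lowered (15.3%) in BT474m1, with medians of -0.10 and 0.33 beside -0.08 and 0.00. Against lapatinib alone, the combination raised 1 member in SKBR-3 (3.22%) and lowered 7 (16.2%), while in BT474m1 it raised 1 (5.2%) and lowered 7 (12.5%). The medians of that comparison were -0.46 and -0.11, beside -0.11 and -0.02 over all genes. Of the 28, 22 were counted in at least 1 of the 8 comparisons, as were 56.2% of all genes, and PLXNA1, PLXNB1, SEMA3F, SEMA4B, SEMA4C and SEMA4D in none.

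**Figure D3:**
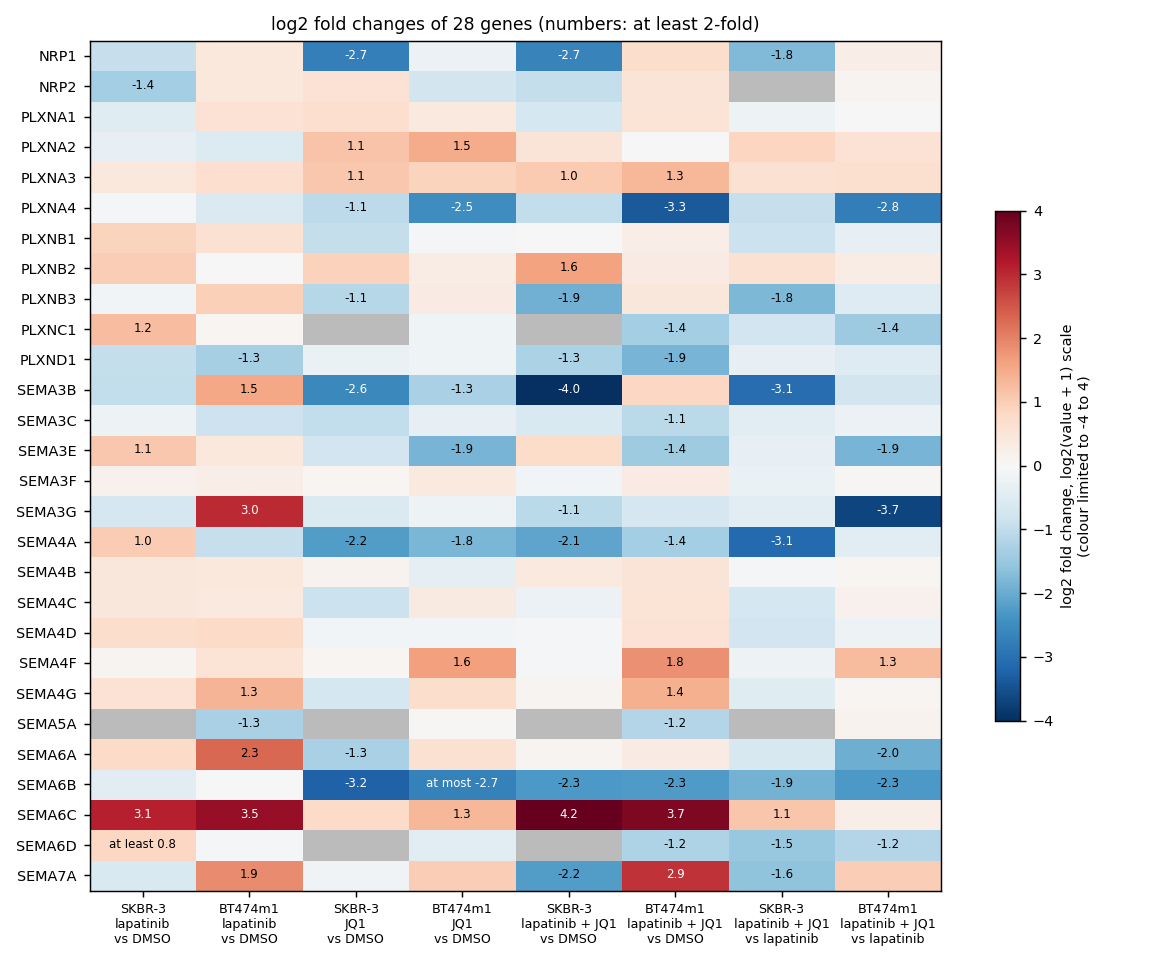
Colours give the log2 fold change on the log2(value + 1) scale of 28 genes in 8 comparisons, red for higher and blue for lower with the drug, limited to -4 to 4, and numbers mark changes of at least 2-fold. Grey cells have 3 reads or fewer in both libraries, and cells marked as at least or at most are bounds from the floor of 3 reads. SEMA6C is red throughout, and SEMA4A is blue in the JQ1 columns of both lines.

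In both lines at once, lapatinib raised 1 member, SEMA6C, where 4.39% of all genes were raised in both, and lowered 0, where 4.15% were lowered in both. JQ1 raised 1, PLXNA2, against 1.16% of all genes, and lowered 4, PLXNA4, SEMA3B, SEMA4A and SEMA6B, against 5.31%. Both drugs raised 2, PLXNA3 and SEMA6C, against 4.46%, and lowered 3, PLXND1, SEMA4A and SEMA6B, against 8.93%. Compared with lapatinib alone, both drugs raised 0 members in both lines (1.14% of all genes) and lowered 2, SEMA6B and SEMA6D (6.31%). With a pseudocount of 10, the calls of SEMA6B, SEMA6D and PLXNA4 in both lines were lost in at least 1 line. The 6 of these with 100 or more in a library of the comparison in each line, SEMA6C, SEMA3B, SEMA4A, PLXNA2, PLXNA3 and PLXND1, are described first.

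The lines were also put in 1 fit over all 14429 genes, chosen after seeing the data, in which line is a block and the spread is how far the lines differ in response. Its adjusted p-values are from limma with Benjamini-Hochberg adjustment. With lapatinib against DMSO, 1 member passed an adjusted p of 0.05, SEMA6C, raised by a mean log2 fold change of 3.29 (adjusted p = 0.0118), where 1.73% of all genes were raised and 2.92% lowered. With both drugs against DMSO, 4 passed, where 7.52% of all genes were raised and 10.9% lowered. They were SEMA6C at 3.98 (adjusted p = 0.00305), PLXNA3 at 1.19 (0.00809), PLXND1 at -1.57 (0.0102) and SEMA6B. SEMA6B was at 10 or more in 2 libraries only, those of SKBR-3 with DMSO and with lapatinib, so that its fall was part of what kept it and its p is not given. With JQ1 against DMSO, 0 members passed by limma, where 0.0139% of all genes were raised and 0.0416% lowered. An unadjusted p under 0.05 was given to 7 members, SEMA6B among them, and to 15.3% of all genes. With both drugs against lapatinib, 0 passed by limma, where 0.0347% of all genes were raised and 0.215% lowered, and 5, again with SEMA6B, had an unadjusted p under 0.05, against 17.3% of all genes. The calls for these comparisons rest on size alone.

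**Figure D4:**
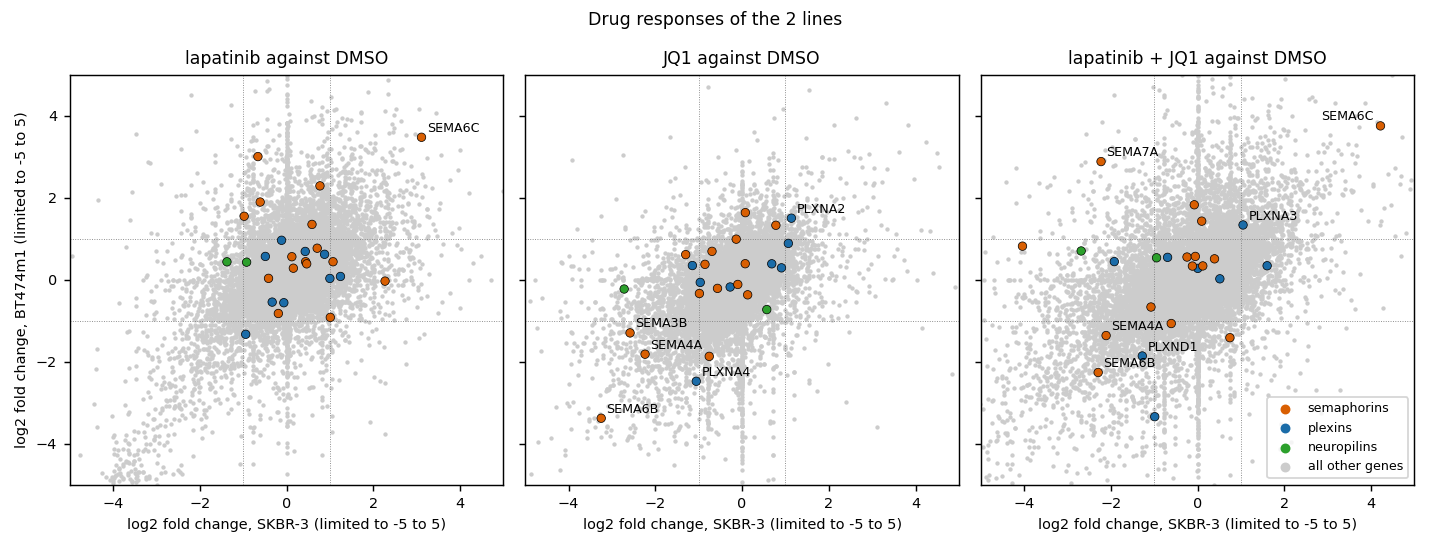
Each panel sets the log2 fold change in BT474m1 (vertical axis) against that in SKBR-3 (horizontal axis) for lapatinib, JQ1 and both drugs against DMSO, with both axes limited to -5 to 5 and dotted lines at 2-fold. Semaphorins are orange, plexins blue, neuropilins green and all other genes grey. Members with 3 reads or fewer in both libraries of a line are not drawn. SEMA6C lies at the upper right with lapatinib, at 3.11 and 3.47, and with both drugs, at 4.22 and 3.75.

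SEMA6C encodes a membrane semaphorin of class 6, whose relatives bind class A plexins. Its SKBR-3 libraries held 8.59 in DMSO, 81.9 in lapatinib, 15.5 in JQ1 and 177 in the combination. Values in BT474m1 were 21.2 in DMSO, 245 in lapatinib, 54.6 in JQ1 and 297 in the combination. In each line both libraries with lapatinib lay above both without it, and the DMSO library was the lowest. The log2 fold change with lapatinib was 3.11 (95% counting interval 2.39 to 4.25) in SKBR-3 and 3.47 (3.08 to 4.01) in BT474m1. The combination gave 4.22 (3.54 to 5.34) and 3.75 (3.37 to 4.28). JQ1 alone raised it by 1.32 (0.85 to 1.90) in BT474m1, and in SKBR-3 the difference was 0.78 (-0.21 to 1.98), an interval that includes 0. Adding JQ1 to lapatinib raised it further in SKBR-3, by 1.11 (0.78 to 1.45), while in BT474m1 the difference was 0.28 (0.09 to 0.47). The DMSO values rest on 12 reads in SKBR-3 and 45 in BT474m1. Raising the pseudocount to 10 left the SKBR-3 changes at 2.31 with lapatinib and 3.33 with both drugs.

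No other class 6 ligand had that pattern in both lines. SEMA6A, a ligand of PLXNA2 and PLXNA4, was at 15.7, 27.6, 5.8 and 17.2 in SKBR-3 with DMSO, lapatinib, JQ1 and both drugs, and at 41.5, 206, 63.8 and 52.5 in BT474m1. It rose with lapatinib in BT474m1, by 2.28 (1.97 to 2.67), and the addition of JQ1 lowered it, at -1.95 (-2.32 to -1.63), so that its library with lapatinib alone stood apart from the other 3. In SKBR-3 it was lowered by JQ1, at -1.30 (-2.74 to -0.27), or -0.70 with a pseudocount of 10, and the difference with lapatinib, 0.77 (0.0032 to 1.64), was short of 2-fold. SEMA6B, another class 6 ligand, was at 20.8, 15.3, 1.29 and 3.44 in SKBR-3 and at 9.43, 9.64, 0 and 1.17 in BT474m1. Its libraries with JQ1 were the lower ones in both lines, and the fall with JQ1 was -3.25 (-7.12 to -2.03) in SKBR-3, from 29 reads to 2, and at least 6.51-fold in BT474m1, from 20 reads to 0. With a pseudocount of 10 the values with JQ1 were -1.45 in SKBR-3 and -0.96 in BT474m1, and those with both drugs against DMSO -1.19 and -0.80. Against lapatinib they were -0.91 and -0.81, so that in none of these comparisons was SEMA6B lowered 2-fold in both lines. SEMA6D, a ligand of PLXNA1, was at 0, 3.83, 0 and 0.688 in SKBR-3, 5 reads or fewer, and at 21.7, 21.1, 15.5 and 8.75 in BT474m1. Its count as raised by lapatinib in SKBR-3 rests on 5 reads against 0, a bound of 1.78-fold. Its fall with both drugs against lapatinib in SKBR-3 is a ratio of 1 read to 5, with an interval on the log2 scale of -8.04 to 0.68.

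SEMA3B encodes a secreted ligand known as a tumour suppressor of the short arm of chromosome 3 and as a target of p53. In SKBR-3 it was at 592 in DMSO, 300.2 in lapatinib, 97.9 in JQ1 and 35.1 in the combination. The BT474m1 values were 137 in DMSO, 402 in lapatinib, 55.1 in JQ1 and 242 in the combination. In both lines the library with JQ1 lay below DMSO and the one with both drugs below lapatinib, whereas lapatinib itself lay below DMSO in SKBR-3 and above it in BT474m1. JQ1 lowered it, at a log2 fold change of -2.58 (-2.85 to -2.34) in SKBR-3 and -1.30 (-1.64 to -1.0) in BT474m1. Lapatinib raised it in BT474m1, by 1.54 (1.35 to 1.75), and in SKBR-3 the difference was -0.98 (-1.16 to -0.80), just short of 2-fold. With both drugs it fell in SKBR-3, at -4.04 (-4.51 to -3.67), and in BT474m1 the difference was 0.81 (0.60 to 1.04).

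SEMA4A encodes a membrane ligand known best for its part in T cell responses. Its SKBR-3 libraries held 250 in DMSO, 504 in lapatinib, 52.2 in JQ1 and 57.1 in the combination. BT474m1 cells had 446 in DMSO, 235 in lapatinib, 126 in JQ1 and 173 in the combination. The JQ1 libraries were the lowest in each line, with or without lapatinib, and DMSO was the highest in BT474m1 and lapatinib in SKBR-3. JQ1 lowered SEMA4A, at -2.24 (-2.63 to -1.91) in SKBR-3 and -1.82 (-2.03 to -1.63) in BT474m1, as did both drugs, at -2.11 (-2.49 to -1.78) and -1.37 (-1.56 to -1.18). In the fit over both lines, SEMA4A with both drugs did not pass, at an adjusted p of 0.0909 by limma, so that this call also rests on size. With lapatinib the difference in SKBR-3 was 1.01 (0.82 to 1.2), at the 2-fold limit, and between 0.96 and 0.99 with a pseudocount of 10 or either other scaling. In BT474m1 it was -0.92 (-1.10 to -0.75).

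**Figure D5:**
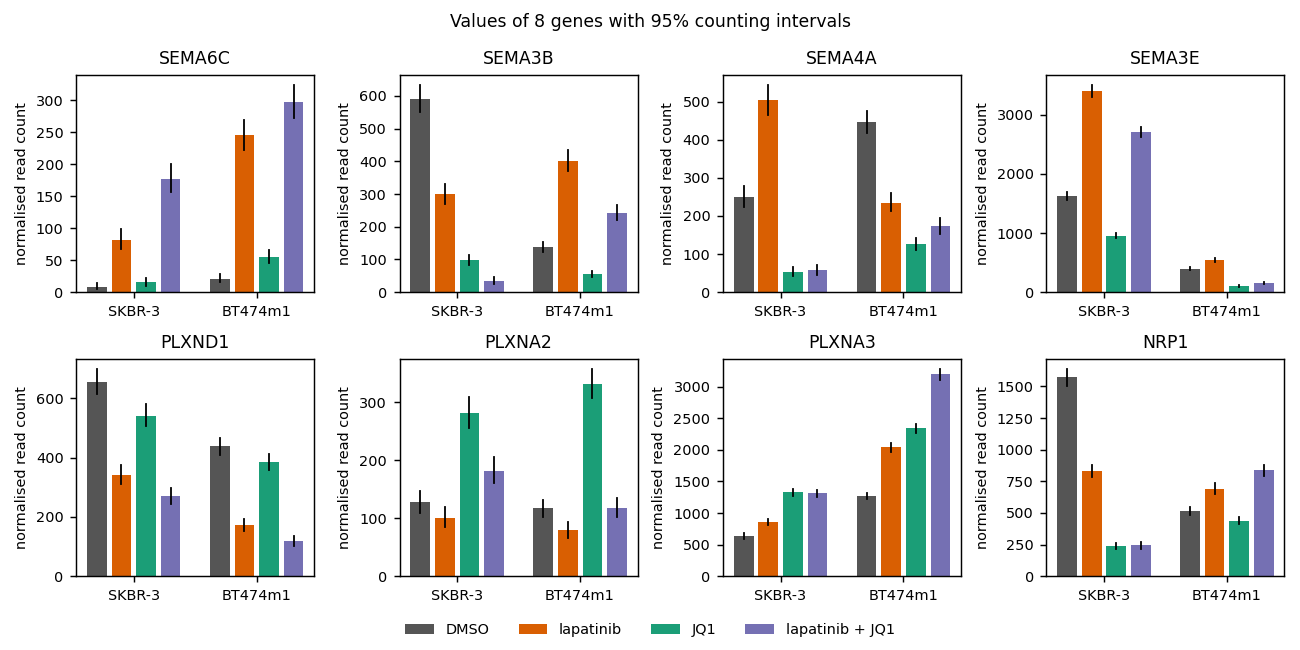
Bars give the normalised read count (linear axes from 0, a scale of its own in each panel) of 8 genes in the 4 libraries of each line, and black lines are 95% intervals of counting error for 1 library. SEMA6C is highest with lapatinib, alone or in combination, in both lines, and SEMA4A is lowest with JQ1, alone or in combination.

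Among the plexins, PLXNA2, a receptor of class 6 semaphorins and, with a neuropilin, of class 3, was at 127 in DMSO, 101 in lapatinib, 282 in JQ1 and 182 in the combination in SKBR-3. For BT474m1 the values were 117 in DMSO, 79.5 in lapatinib, 332 in JQ1 and 118 in the combination. The library with JQ1 alone was the highest in each line, and that with lapatinib the lowest. The log2 fold change with JQ1 was 1.14 (0.89 to 1.40) in SKBR-3 and 1.5 (1.29 to 1.72) in BT474m1. With both drugs the differences were 0.51 (0.24 to 0.80) and 0.02 (-0.26 to 0.29), both short of 2-fold.

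PLXNA3, a receptor that works with neuropilins for class 3 ligands, was at 634 in DMSO, 855 in lapatinib, 1329.9 in JQ1 and 1312 in the combination in SKBR-3. Its BT474m1 libraries held 1269 in DMSO, 2042 in lapatinib, 2339.6 in JQ1 and 3195 in the combination. DMSO was the lowest library in each line. Both drugs raised it by 1.05 (0.93 to 1.17) in SKBR-3 and 1.33 (1.26 to 1.40) in BT474m1, and JQ1 alone raised it in SKBR-3, by 1.07 (0.95 to 1.18). With the libraries scaled to equal totals, the 2 increases with JQ1 in SKBR-3, of PLXNA2 and PLXNA3, were under 2-fold, as was that of PLXNA3 there with both drugs, at 0.96.

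PLXND1, the receptor of SEMA3E in vessels, was at 656 in DMSO, 341 in lapatinib, 542 in JQ1 and 270.3 in the combination in SKBR-3. Values in BT474m1 were 438 in DMSO, 173 in lapatinib, 386 in JQ1 and 119.5 in the combination. Both lapatinib libraries were lower than both others in each line, and JQ1 alone was nearer to DMSO. Both drugs lowered it, at -1.28 (-1.45 to -1.11) in SKBR-3 and -1.86 (-2.10 to -1.65) in BT474m1, and lapatinib alone lowered it in BT474m1, at -1.34 (-1.54 to -1.15). In SKBR-3 the difference with lapatinib was -0.94 (-1.11 to -0.78).

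SEMA3E, the ligand of PLXND1, was at 1617 in DMSO, 3400.5 in lapatinib, 956 in JQ1 and 2711 in the combination in SKBR-3. The BT474m1 values were 397 in DMSO, 537 in lapatinib, 108 in JQ1 and 148 in the combination. In SKBR-3 the lapatinib libraries were the higher ones, and in BT474m1 the JQ1 libraries were the lower ones. Lapatinib raised it in SKBR-3, by 1.07 (1.0 to 1.15), and the difference in BT474m1 was 0.43 (0.30 to 0.57). Both drugs lowered it in BT474m1, at -1.42 (-1.63 to -1.22), and in SKBR-3 the difference was 0.75 (0.67 to 0.82). With both drugs, receptor and ligand thus had values of 270.3 and 2711 in SKBR-3 and of 119.5 and 148 in BT474m1, on a scale not corrected for length. The difference between the lines was not tested.

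PLXNB2, which binds SEMA4C and SEMA4D, was at 16116 in DMSO, 32216 in lapatinib, 30260.3 in JQ1 and 48978 in the combination in SKBR-3. BT474m1 cells had 7783 in DMSO, 7928 in lapatinib, 9485 in JQ1 and 9826 in the combination. The SKBR-3 values spanned more than the BT474m1 values, which lay close together. Both drugs raised it in SKBR-3, by 1.60 (1.58 to 1.63), while lapatinib alone, at 1.0 (0.98 to 1.02), lay just under 2-fold before rounding. In BT474m1 the same comparisons gave 0.34 (0.31 to 0.37) and 0.03 (-0.01 to 0.06). Its ligand SEMA4C was at 453, 626, 250 and 382 in SKBR-3 with DMSO, lapatinib, JQ1 and both drugs, and at 1259, 1642, 1628 and 1843 in BT474m1, and was counted in none of the 8 drug comparisons.

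PLXNB1, which pairs with MET and ERBB2 at the cell surface, was at 1573, 2889, 805 and 1578 in SKBR-3 and at 1140.5, 1748, 1086 and 1377 in BT474m1. It was highest with lapatinib in each line, at 0.88 (0.80 to 0.95) and 0.62 (0.54 to 0.69), both short of 2-fold. Its ligand SEMA4D, at 213, 348, 198 and 205 in SKBR-3 and 309, 526, 285 and 458 in BT474m1, was also highest with lapatinib in each line, at 0.71 (0.50 to 0.93) and 0.76 (0.62 to 0.91). PLXNB3, the receptor of SEMA5A, was at 170.4, 157, 76.4 and 44.3 in SKBR-3 and at 259, 504, 328 and 351 in BT474m1. The fall in SKBR-3 was -1.15 (-1.48 to -0.83) with JQ1 and -1.92 (-2.37 to -1.55) with both drugs. Its exons overlap those of SRPK3 on the same strand by up to 412 bases and its values are whole reads in 1 of 8 libraries, so that they are uncertain.

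Of the other class A and C receptors, PLXNA1, the common partner of NRP1, was at 1447, 1031, 2325 and 895 in SKBR-3 and 883, 1305, 1152 and 1285 in BT474m1, with no difference of 2-fold in the comparisons made. PLXNA4 was highest with DMSO in BT474m1 and fell with JQ1, at -2.48 (-2.99 to -2.09), and with both drugs, at -3.35 (-4.14 to -2.82), or -2.71 with a pseudocount of 10. In SKBR-3 its call with JQ1 rests on 9 reads against 4, and the interval, -1.06 (-3.47 to 0.52), includes 0. PLXNC1, the receptor of SEMA7A, was at 0.716, 3.06, 0 and 1.38 in SKBR-3, 4 reads or fewer, and at 13.7, 14.5, 12.1 and 4.66 in BT474m1. In SKBR-3 its ratio with lapatinib is of 4 reads to 1, with an interval on the log2 scale of -1.24 to 7.72. In BT474m1 the difference with both drugs was -1.37 (-2.89 to -0.39), from 29 reads to 8, and with a pseudocount of 10 it was -0.69, under 2-fold.

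NRP1, the co-receptor of class 3 semaphorins and of VEGF, was at 1571 in DMSO, 829 in lapatinib, 238 in JQ1 and 244 in the combination in SKBR-3. For BT474m1 the values were 516 in DMSO, 693 in lapatinib, 439.6 in JQ1 and 837 in the combination. In SKBR-3 the JQ1 libraries were far below the others, and in BT474m1 JQ1 alone was the lowest and both drugs the highest. JQ1 lowered NRP1 in SKBR-3, at -2.72 (-2.89 to -2.56), as did both drugs, at -2.68 (-2.86 to -2.53). In BT474m1 the differences were -0.23 (-0.36 to -0.10) and 0.70 (0.58 to 0.81), both short of 2-fold. NRP2 was at 3.58, 0.766, 5.8 and 1.38 in SKBR-3 and at 28.8, 39.2, 16.9 and 42 in BT474m1. Its call as lowered by lapatinib in SKBR-3 is a ratio of 1 read to 5, with an interval on the log2 scale of -7.79 to 0.93.

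Of the remaining class 3 ligands, SEMA3C was at 4855, 4258, 2454 and 3185 in SKBR-3 with DMSO, lapatinib, JQ1 and both drugs, and at 5802, 3268, 4582 and 2758 in BT474m1, the highest with DMSO in each line. It fell with both drugs in BT474m1, at -1.07 (-1.12 to -1.02), and the difference in SKBR-3 was -0.61 (-0.66 to -0.55). SEMA3F was at 4026, 4489, 4233 and 3706 in SKBR-3 and 1076, 1304, 1406 and 1352 in BT474m1, and no difference within a line exceeded 0.39 on the log2 scale. SEMA3G, a ligand made by vessels, was at 27.2, 16.8, 18 and 12.4 in SKBR-3 and 8.02, 71.1, 6.76 and 4.66 in BT474m1. Its BT474m1 library with lapatinib alone stood above the other 3, by 3.0 (2.41 to 3.98) over DMSO, and the addition of JQ1 lowered it, at -3.67 (-5.17 to -2.90). With a pseudocount of 10 these became 2.17 and -2.47. In SKBR-3 the difference with both drugs against DMSO was -1.08 (-2.03 to -0.29), under 2-fold at -0.73 with a pseudocount of 10 and at -0.94 with scaling by the median of ratios.

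Of the other class 4 ligands, SEMA4F, which is expressed in the nervous system, was at 159, 173, 168 and 151 in SKBR-3, where the 4 libraries lay close together. In BT474m1 it was at 69.3, 102, 217 and 248 and rose with JQ1, by 1.63 (1.37 to 1.92), and with both drugs, by 1.82 (1.56 to 2.12). SEMA4G was at 46.6, 70.5, 28.4 and 49.9 in SKBR-3 and 43, 111, 69.9 and 117 in BT474m1, and in BT474m1 rose with lapatinib, by 1.34 (1.0 to 1.75). Its exons overlap MRPL43 on the opposite strand by up to 382 bases and its values are whole reads in 0 of 8 libraries, so that they are uncertain. SEMA4B was at 493, 669, 539 and 647 in SKBR-3 and 564, 763, 435 and 801 in BT474m1, with no drug difference of 2-fold in the comparisons made. SEMA5A fell in BT474m1 with lapatinib, at -1.31 (-1.49 to -1.13), and with both drugs, at -1.16 (-1.33 to -0.99), while JQ1 alone, at 0.06 (-0.06 to 0.18), left it near DMSO.

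SEMA7A was the 1 member called in opposite directions in the lines in the same comparison, where 1.37% of all genes were lowered in SKBR-3 and raised in BT474m1. In SKBR-3 it was at 306 in DMSO, 201 in lapatinib, 279 in JQ1 and 64.7 in the combination. Its BT474m1 libraries held 7.07 in DMSO, 28.9 in lapatinib, 15 in JQ1 and 58.3 in the combination. The library with both drugs was the lowest in SKBR-3 and the highest in BT474m1, and even there it lay below the lowest of SKBR-3. Both drugs gave -2.23 (-2.58 to -1.92) in SKBR-3 and 2.88 (2.25 to 3.93) in BT474m1, and lapatinib alone -0.61 (-0.84 to -0.39) and 1.89 (1.17 to 2.97). The DMSO library of BT474m1 held 15 reads of it, and with a pseudocount of 10 its changes were 2.0 with both drugs and 1.19 with lapatinib. With the libraries scaled to equal totals, SEMA3B was also called in opposite directions, lowered by lapatinib in SKBR-3 and raised in BT474m1.

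Transcripts on the opposite strand overlap the exons of further members, and if the counting ignored strand, their reads cannot be told apart from those of the member. The longest overlaps were 480 bases for NRP1, 393 for PLXNC1, 245 for SEMA6A, 223 for SEMA5A, 147 for NRP2 and 110 for SEMA3F. Those of SEMA6D, SEMA3B and PLXNA3 were 10, 7 and 5 bases. Their part in the values was not tested.

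Genes that work with the family were taken from 3 lists: 30 cytoplasmic effectors of plexins, 19 co-receptors and members of the VEGF axis, and 8 proteases that cut semaphorins or their receptors. Of these, 29, 13 and 8 passed the same limit of 10. In SKBR-3, 0 effectors rose and 2 fell with lapatinib, 1 rose and 2 fell with JQ1, and 4 rose and 4 fell with both drugs. In BT474m1 the counts were 0 and 5, 3 and 2, and 2 and 6. The median of the effectors lay between -0.19 and 0.26 in these 6 comparisons, beside -0.08 to 0.07 over all genes. Of the co-receptors and VEGF axis, 3 rose and 1 fell with lapatinib in SKBR-3, 2 rose and 4 fell with JQ1, and 1 rose and 0 fell with both drugs. The counts in BT474m1 were 1 and 2 with lapatinib, 2 and 3 with JQ1, and 2 and 4 with both drugs. Among these, ITGA1, lowered by lapatinib in BT474m1, held 3 reads against 0 and so lay at the floor, and NRCAM, lowered by JQ1 in SKBR-3, held 4 reads against 0, a bound of 1.48-fold. Calls on few reads were not limited to these. PGF, raised by JQ1 in BT474m1, went from 0.472 to 2.42, and the effector MRAS, lowered by JQ1 in SKBR-3, from 5.01 to 1.29. Of the proteases, 1 was raised and 0 lowered by each treatment in SKBR-3, and the counts in BT474m1 were 2 and 0 with lapatinib, 1 and 2 with JQ1, and 2 and 2 with both drugs. The shares of all genes given above for each comparison apply to these counts.

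The pathway genes called alike in both lines, at 100 or more in each, were MET, L1CAM, FARP2 and SH3BP1. MET, a receptor kinase that associates with PLXNB1, was at 1329, 2115, 379.5 and 715 in SKBR-3 with DMSO, lapatinib, JQ1 and both drugs, and at 1227, 1315, 517 and 349 in BT474m1. JQ1 lowered it, at -1.80 and -1.24 on the log2 scale, and in both lines the JQ1 libraries were the lower ones. L1CAM, an adhesion molecule that joins NRP1 as a co-receptor, was at 1361, 299, 3324 and 688 in SKBR-3 and 19.3, 33.7, 54.1 and 112 in BT474m1. With both drugs it was higher than with lapatinib alone, by 1.2 and 1.70, although with both drugs against DMSO the values were -0.98 and 2.47. FARP2, an exchange factor bound to PLXNA1, was at 256, 374, 454 and 519 in SKBR-3 and 586, 763, 959 and 1247 in BT474m1, lowest with DMSO in each line and raised by both drugs, by 1.02 and 1.09. SH3BP1, a GTPase-activating protein for Rac that binds PLXND1, was at 232, 72.7, 170.0 and 31.8 in SKBR-3 and 252, 135, 81.2 and 65.4 in BT474m1, highest with DMSO and lowest with both drugs in each line, with changes of -2.83 and -1.93.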

How the data were processed

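Poly(A) RNA was sequenced by the authors from 8 cultures, 1 for each line and treatment, grouped by the labels. Each deposited value is a signal, the RSEM read count of a gene that the authors scaled to an upper quartile near 1000. The submitters' processing notes name hg19, RSEM, Picard 1.88 and SAMtools 1.2, the methods text another assembly and other programs, so that the build is uncertain. The labels name both a stranded and an unstranded kit, so that sense and antisense reads may not have been told apart. The methods text gives a shorter treatment in general, and the labels were followed.

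What 1 read is worth was recovered from the step between values, and 83.6% to 84.6% of the values above 0 were then whole reads within 0.02 (26 of the 28 members throughout). Genes with 10 or more in any library were kept. Work was done with pandas 2.3.3, numpy 2.4.6 and scipy 1.17.1 under Python 3.11.15, and plots with matplotlib 3.10.9. Intervals are exact Clopper-Pearson intervals on the recovered reads, and a floor of 3 reads (1.41 to 2.30 units) gave bounds. Both lines were also fitted together with limma 3.58.1 under R 4.3.3 on log2(value + 1), with line and treatment as terms and 3 residual degrees of freedom. The methods were tested on simulated data. Lengths are of GENCODE canonical transcripts on GRCh38. Alternatives were another pseudocount, 2 scalings, 2 filters and intervals that exclude no change.

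Genes given values in every library were those called alike in both lines at 100 or more in each, those called in opposite directions with the same minimum, and the highest per kilobase. SEMA7A, called in opposite directions, stayed under that minimum in BT474m1. The remaining kept members were given values to account for the family. The members and lists were chosen with earlier results of these data known.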

Additional observations from a re-analysis of the deposited data

Results flagged for a closer look

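SEMA7A, the lipid-anchored ligand of PLXNC1, was noted because its libraries moved in opposite directions in the lines. With both drugs against DMSO its log2 fold change was -2.23 in SKBR-3 and 2.88 in BT474m1. Each value compares 1 library with 1 library, its level in BT474m1 stayed under 100, and the difference between the lines was not tested.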

How the results depend on the processing

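Members counted at 2-fold moved by over 1.5 times as follows. For lapatinib in SKBR-3, the 5 raised became 2 with a pseudocount of 10, 3 with a filter at 100 and 3 with intervals that exclude no change. The 1 lowered, NRP2, became 0 under the same 3 settings and 2, with SEMA3B, under equal totals. For JQ1 in SKBR-3, the 2 raised, PLXNA2 and PLXNA3, became 0 under equal totals, which moved the median of all genes from -0.08 to -0.22. With both drugs against lapatinib, the 1 raised in SKBR-3 became 2, with PLXNA2, under scaling by the median of ratios. In BT474m1 the 1 raised became 2, with SEMA7A, under that scaling and 3 without a filter, and the 7 lowered became 4 with a pseudocount of 10 and 3 with a filter at 100. The 8 higher in BT474m1 with DMSO became 5 with a filter at 100, and the median of ratios moved the median of all genes there from 0.21 to 0.06. No called change turned its sign under a pseudocount of 10 or either scaling. Other scalings moved a member's log2 fold change by at most 0.16. A pseudocount of 10 moved 29 of the 89 called values by over 1.5 times, by up to 3.30 on the log2 scale, in NRP2, PLXNA4, PLXNC1, SEMA3G, SEMA5A, SEMA6A, SEMA6B, SEMA6C, SEMA6D and SEMA7A, and took 19 under 2-fold. With line as a block in limma, chosen after seeing the data, the members called in both lines with JQ1, 1 raised and 4 lowered, became 0 and 0, and the 2 lowered with both drugs against lapatinib became 0. No paired analysis by replicate number was possible because each group held 1 library and the labels give no such numbers. With 1 library a group, no replicate could be left out. Members of a few reads, such as NRP2, PLXNC1 and SEMA6D in SKBR-3, are limited by depth.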
